A study of Zea mays with 10 samples.

Results

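The maize gene sus1 (LOC542247) encodes a sucrose synthase, and 11 of the 5400 cDNA clones on the array carried its name. The clones were taken by the gene symbol in the platform annotation, with 3 successive spots averaged per clone, and no measured value entered this choice. All 11 clones were tested, and all 330 of their spot values, from 33 spots on 10 arrays, were present. The array compared immature ears of the inbred lines B73 and H99 with those of their F1 hybrid, B73xH99. On 5 arrays the hybrid was hybridised together with B73 and on 5 together with H99. In each set, 3 forward arrays carried the hybrid in Cy3 and the inbred in Cy5, and 2 reversed arrays carried the dyes the other way round. Each genotype was a bulk of 10 field-grown plants at stage V15, and all labellings of a genotype came from the same pooled poly(A) RNA. The p-values therefore measure the spread of labelling and hybridisation, not that between plants.

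Sucrose synthase splits sucrose, the sugar that reaches growing organs through the phloem, into fructose and UDP-glucose, in a reaction that can also run backwards. UDP-glucose feeds the synthesis of cellulose, callose and, through further steps, starch, and sucrose synthase is used as a mark of strong sugar import into a tissue. In maize the gene sh1 (shrunken1) encodes the isoform that dominates in the endosperm, and sus1 encodes an isoform found in many tissues. A young ear grows by importing sucrose.

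All values below are deposited log2 ratios between hybrid and inbred, and their direction is not settled. The design text defines the ratio as F1 over inbred, under which positive would mean more transcript in the F1. The labels state neither which channel was the numerator nor whether the reversed arrays were turned before deposit. Signs are therefore given without a direction, and the reversed arrays were used as deposited. L1 stands for the average of the 5 B73 arrays, L2 for that of the 5 H99 arrays, d is the mean of L1 and L2, and a is L2 minus L1 divided by 2. L1 and L2 share the hybrid RNA. Ratios give no level, so that the abundance of sus1 transcripts and the tissue identity of the ears could not be checked. The array held the inflorescence markers kn1 with 11 clones and ZAG1 and ZAG3 with 1 each. No other inflorescence marker on the list was matched, and none of the endosperm or anther markers was. Only 811 of the 5400 clones had a gene name, so that a marker without a match may still be on the array. Array medians lay between -0.001 and 0, and 0.25% to 2.31% of the spots were missing per array. Across all spots, the correlation was 0.72 to 0.77 among forward B73 arrays, 0.54 between the reversed ones, and 0.35 to 0.49 between forward and reversed B73 arrays. For H99 it was 0.29 to 0.54 among forward arrays, 0.49 between the reversed ones, and -0.14 to 0.20 between forward and reversed arrays. The number of arrays limits the precision.

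Averaged over its clones, sus1 lay close to 0 in both comparisons. The gene mean on the B73 arrays was -0.09, -0.07 and -0.11 on the forward arrays and -0.08 and 0.01 on the reversed ones. On the H99 arrays it was -0.01, 0.02 and -0.03 on the forward arrays and 0.03 and 0.04 on the reversed ones. Of the B73 arrays 4 lay below every H99 array, and the last lay within their range. L1 was -0.07 ± 0.0441 (SD, n = 5 arrays), a ratio of 1.05-fold, and L2 was 0.01 ± 0.0309 (SD, n = 5), a ratio of 1.01-fold. Neither passed the threshold in limma's moderated two-sided test with Benjamini-Hochberg adjustment over all 4763 gene means and unnamed clones (adjusted p = 0.277 for L1 and 0.953 for L2), where 40.4% of these features were called for L1 and 0.987% for L2. With limma's moderated SD, the 95% interval of L1 ran from -0.17 to 0.04. This was a ratio of at most 1.13-fold on the negative side and 1.03-fold on the positive side. The interval of L2 ran from -0.09 to 0.12, or at most 1.07-fold and 1.08-fold.

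The gene means of d and a, which ask whether the hybrid departs from the midpoint of its parents and whether the parents differ, were -0.03 (SE 0.0351, limma adjusted p = 0.56) and 0.04 (SE 0.0351, limma adjusted p = 0.429). Of all features 24.1% were called for d and 19.4% for a. The outcome for L1 depended on the variance used. The arrays scattered less around the gene means of sus1 than limma's moderated SD of 0.111 assumes. That SD is drawn towards all features, most of them single clones without a gene name, while the sus1 value averages several clones. Whether this accounts for the outcome was not tested. With the gene's own variance, as in the F-test of the design text, the L1 of -0.07 passed at an adjusted p of 0.0218, and the a of 0.04 did not (adjusted p = 0.0728). The share of all features called with own variance was not taken. An exact two-sided permutation test over the 252 assignments of the 10 arrays gave p = 0.0238 for the difference between the H99 mean of 0.011 and the B73 mean of -0.069, where the smallest possible p was 0.00794. The difference of 0.08 on the log2 scale was thus larger than the spread between arrays in the permutation test, whose p is not adjusted, and not in either model across all features.

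**Figure D1:**
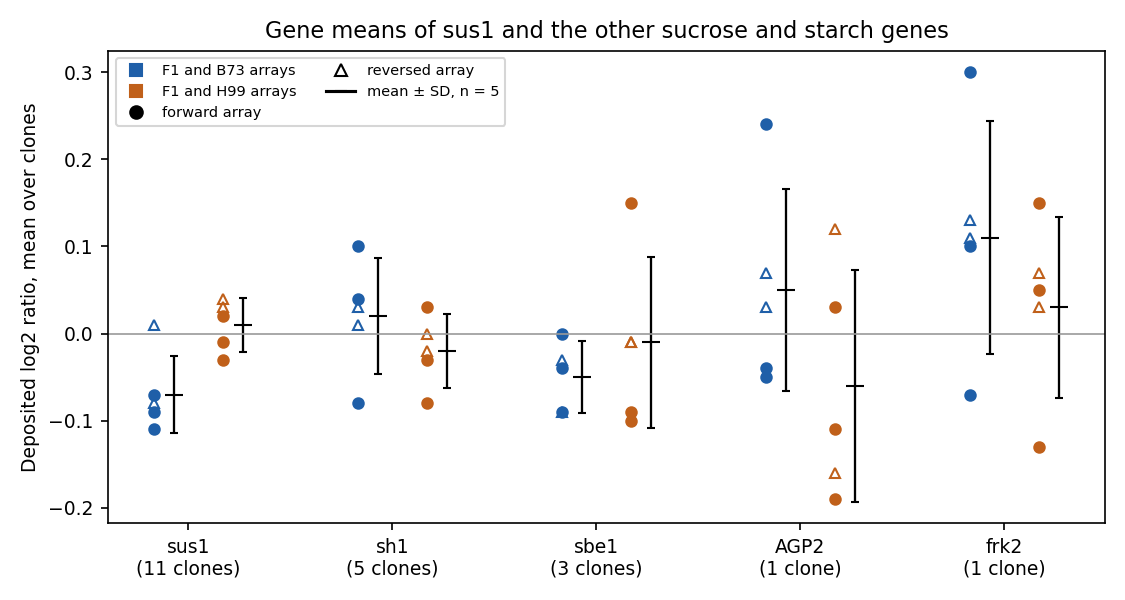
Deposited log2 ratio (vertical axis), averaged over the clones of each gene, for sus1 and the other 4 genes of sucrose and starch metabolism on the array. Each point is 1 array, filled for forward and open for reversed dye orientation, in blue for B73 and in orange for H99, and black bars give the mean ± SD of 5 arrays; the sus1 means lie at -0.07 for B73 and 0.01 for H99.

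With the arrays as deposited, the mean of sus1 covered clones called for L1 in both directions. That held for 40 of the 70 genes with at least 3 tested clones, and no clone was called with the reversed B73 arrays turned. In L1, 6 of the 11 sus1 clones passed an adjusted p of 0.05, against 41.7% of the 5357 tested clones. Of these 6, 2 were positive and 4 negative, where 21.0% of all clones were called positive and 20.7% negative. Counting every clone, 2 had a positive and 9 a negative L1. The median L1 of the sus1 clones was -0.14 and that of all clones -0.01.

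The clone with the highest L1 was AI734758. Its B73 arrays read 0.30, 0.40 and 0.25 forward and 0.33 and 0.44 reversed. All 5 were positive and both orientations overlapped. L1 was 0.34 ± 0.0762 (SD, n = 5), a ratio of 1.27-fold (limma adjusted p = 0.00198). The second positive clone, AI734723, read 0.47, 0.36 and 0.43 forward and 0.21 and 0.18 reversed. Here too all arrays were positive, but the reversed ones were the lowest. L1 was 0.33 ± 0.131 (SD, n = 5) or 1.26-fold (limma adjusted p = 0.000543).

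At the other end stood AI737425, with -0.52, -0.52 and -0.48 on the forward and -0.21 and 0.00 on the reversed B73 arrays. Its L1 of -0.35 ± 0.234 (SD, n = 5), or 1.27-fold, was as large as that of AI734758 with the opposite sign (limma adjusted p = 0.00168). The reversed arrays lay nearer to 0 than every forward one. AI737425 was the only sus1 clone whose B73 arrays differed by dye orientation past the threshold, with a forward mean of -0.51 and a reversed mean of -0.10 (difference -0.40, SE 0.101, limma adjusted p = 0.0176). Such a difference was called for 15.4% of all clones.

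AI666096 read -0.39, -0.09 and -0.51 forward and -0.16 and -0.08 reversed, all negative, with an L1 of -0.25 ± 0.192 (SD, n = 5; limma adjusted p = 0.00918). AI714398 read -0.26, -0.35 and -0.35 forward and -0.10 and 0.02 reversed, with an L1 of -0.21 ± 0.162 (SD, n = 5; limma adjusted p = 0.0173). AI691580 read -0.52, -0.01 and -0.15 forward and -0.24 and -0.02 reversed, with an L1 of -0.19 ± 0.207 (SD, n = 5; limma adjusted p = 0.0342). These 3 clones were called with ratios of 1.19-fold, 1.16-fold and 1.14-fold, but each lost its call when certain single arrays were left out. Without B73 array 1, the L1 of AI666096 was -0.210 (limma adjusted p = 0.0527), that of AI714398 -0.196 (adjusted p = 0.0631) and that of AI691580 -0.107 (adjusted p = 0.227). Without B73 array 3 they were -0.180, -0.173 and -0.199, with limma adjusted p of 0.0601, 0.0791 and 0.0632. AI714398 also lost its call without array 2 and AI691580 without array 4. AI734758, AI734723 and AI737425 stayed past the threshold whichever of the 10 arrays was left out.

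The other 5 clones did not pass for L1. AI666109 lay at -0.14 ± 0.133 (SD, n = 5; limma adjusted p = 0.0706), with -0.04, -0.06 and -0.02 forward and -0.27 and -0.29 reversed, so that the reversed arrays were lower, the opposite order to AI737425. AI881803 lay at -0.14 ± 0.123 (SD, n = 5; limma adjusted p = 0.0799), negative on all 5 arrays. AI691599, AI734679 and AI738140 lay at -0.11, -0.05 and -0.01. A single sign on all 5 B73 arrays was found for 7 of the 11 sus1 clones and for 37.7% of all clones. The gene mean did not differ between orientations past the threshold on the B73 arrays (-0.05, SE 0.0886, limma adjusted p = 0.731, against 15.2% of features called).

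**Figure D2:**
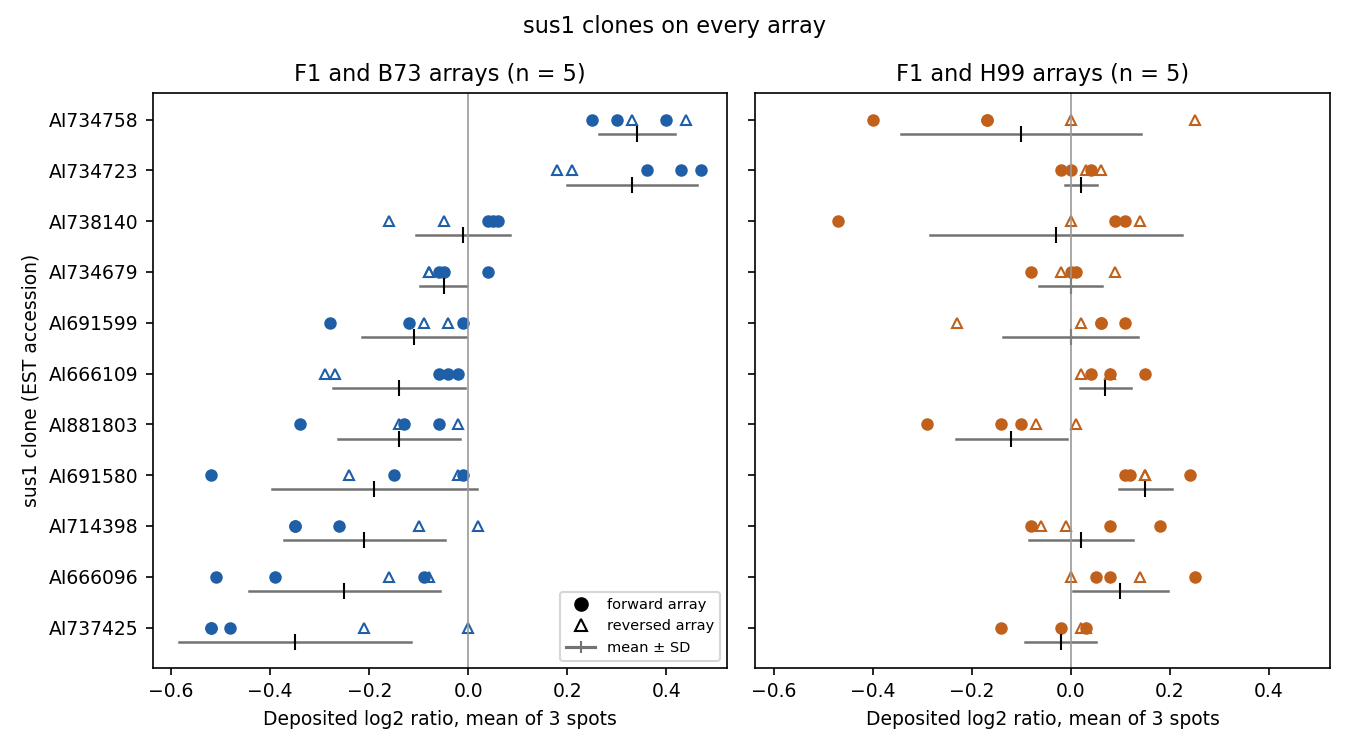
Deposited log2 ratio (horizontal axis, mean of 3 spots) of the 11 sus1 clones on the 5 B73 arrays (left) and the 5 H99 arrays (right), ordered by L1. Filled points are forward and open triangles reversed arrays, and bars below them give the mean ± SD; on the B73 arrays the clone means run from -0.35 to 0.34 and on the H99 arrays from -0.12 to 0.15.

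The calls for L1 rest on the direction of the reversed B73 arrays. With the sign of these 2 arrays turned, 0 of the 11 clones passed for L1, d or a in limma, with 2, 0 and 0 at an unadjusted p under 0.05, and no clone of the whole array passed for L1, and the gene mean L1 was -0.038 (adjusted p = 0.665). The forward arrays alone, which all ran one way, called the same 6 clones for L1 as the fit of all arrays. The reversed arrays alone called 2, AI734758 and AI666109. In each of these fits the hybrid carried the same dye throughout, so that dye and genotype cannot be told apart. The share of all clones called in these fits was not taken, nor was that for d and a with the reversed B73 arrays turned.

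Averaged over both dye orientations, the sus1 clones kept close to 0 against H99. None passed for L2, against 1.23% of all clones, and 1 clone had an unadjusted p under 0.05. That clone was AI691580, which read 0.12, 0.11 and 0.24 forward and 0.15 and 0.15 reversed. All 5 arrays were positive and within a narrow range, with an L2 of 0.15 ± 0.0536 (SD, n = 5; unadjusted p = 0.0361, limma adjusted p = 0.283). AI666109 also had a single sign, with 0.15, 0.04, 0.08, 0.02 and 0.08 and an L2 of 0.07 ± 0.0508 (SD, n = 5; limma adjusted p = 0.601). A single sign on all H99 arrays was found for 2 of the 11 clones and for 16.6% of all clones.

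The 2 most scattered clones on the H99 arrays were AI738140 and AI734758. AI738140 read 0.11, 0.09 and -0.47 forward and 0.00 and 0.14 reversed, with an L2 of -0.03 ± 0.254 (SD, n = 5). Array 3 stood apart, and its 3 spots themselves read -0.18, -0.36 and -0.88, the widest spread between spots of any sus1 clone on any array (SD 0.363). The median SD between the 3 spots was 0.0526 both over the sus1 clones and over all clones. AI734758 read -0.17, -0.17 and -0.40 forward and 0.00 and 0.25 reversed, so that the orientations did not overlap. Its difference between orientations of -0.37 (SE 0.111) did not pass (limma adjusted p = 0.0644), where 4.31% of clones were called. The gene mean difference between orientations on the H99 arrays was -0.04 (SE 0.0886, limma adjusted p = 0.829, against 4.30% of features called). On the forward arrays alone the L2 of AI734758 passed, at -0.248 (limma adjusted p = 0.0406).

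The parameter d asks whether the hybrid differs from the midpoint of both parents. For d, 3 of the 11 clones were called, against 25.2% of all clones. AI734723 was positive at 0.18 (SE 0.0413, limma adjusted p = 0.00679), where 12.5% of all clones were called positive, and AI737425 and AI881803 were negative at -0.18 (SE 0.0514, adjusted p = 0.0186) and -0.13 (SE 0.0438, adjusted p = 0.0409), where 12.7% were called negative. AI881803 read -0.13, -0.34, -0.06, -0.14 and -0.02 on the B73 arrays and -0.29, -0.10, -0.14, 0.01 and -0.07 on the H99 arrays. It leaned the same way in both sets, with an L2 of -0.12 ± 0.112 (SD, n = 5; limma adjusted p = 0.379), and its a of 0.01 was near 0. The d of AI881803 stayed past the threshold in only 2 of the 10 fits that left out 1 array, with adjusted p of 0.0243 to 0.114. The d of AI737425 was lost without B73 array 1 (limma adjusted p = 0.0591), B73 array 2 (adjusted p = 0.0532) or H99 array 1 (adjusted p = 0.0528). The d of AI734723 stayed past it in all 10.

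The parameter a asks whether the parents differ, with the hybrid as the common reference. For a, 5 of the 11 clones were called, against 20.3% of all clones, 3 positive and 2 negative, where 9.15% and 11.2% of all clones were called. AI734758 had the largest a, -0.22 (SE 0.0524, limma adjusted p = 0.0099), and was the only one whose call stayed in all 10 fits that left out 1 array. Its 3 forward H99 arrays and its lower reversed one lay below every B73 array, while the remaining reversed one, at 0.25, lay level with the lowest of them. AI734723 followed at -0.15 (SE 0.0413, limma adjusted p = 0.0175), with H99 arrays at 0.04, -0.02, 0.00, 0.06 and 0.03, all below its B73 arrays. The call was lost without B73 array 1 (-0.134, limma adjusted p = 0.0582).

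The positive values of a came from AI666096 (0.17, SE 0.0483, limma adjusted p = 0.0196), AI691580 (0.17, SE 0.0482, adjusted p = 0.0205) and AI737425 (0.16, SE 0.0514, adjusted p = 0.0329). AI666096 read 0.08, 0.05, 0.25, 0.00 and 0.14 on the H99 arrays, above all its B73 arrays. AI737425 read -0.14, -0.02, 0.03, 0.02 and 0.03 there, and its B73 array 5 at 0.00 lay among them. The arrays of both inbreds did not overlap at all for 4 sus1 clones, AI734723, AI666096, AI691580 and AI666109, and for 11.8% of all clones. Most of the 5 calls for a did not stay in every fit that left out 1 array, and the share of all clones called in those fits was not taken. AI737425 was past the threshold for a in 3 of the 10 fits that left out 1 array, AI691580 in 8 and AI666096 in 7, and without B73 array 1 only 1 of the 5 calls for a was left. The a of AI737425 hardly moved without H99 array 2, 3, 4 or 5. It was 0.159 to 0.165 there, with limma adjusted p of 0.0526 to 0.068.

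The study placed genes in dominance classes by d divided by the absolute value of a, which is 0 where the hybrid lies at the midpoint of its parents and 1 or -1 where it equals a parent. The 95% Fieller interval of this ratio ran from 0.056 to 1.422 for AI734758 (estimate 0.555), from 0.519 to 2.922 for AI734723 (estimate 1.162) and from -3.516 to -0.398 for AI737425 (estimate -1.107). Each of these 3 held the value of a parent and not the midpoint. That of AI691580 ran from -0.89 to 0.584 and held the midpoint and neither parent, and that of AI666096, from -1.436 to 0.18, held the midpoint and a parent. With limma's moderated variance, the gene mean of sus1 gave no bounded interval. The 5 called clones thus fell into 3 kinds of interval with the arrays as deposited. With the reversed B73 arrays turned, none of the 5 was called for a (limma adjusted p = 0.385 to 0.724). The share of all clones called for a in that fit was not taken. The loss of these calls therefore cannot be told from a shift across the whole array. The intervals given here are those of the arrays as deposited.

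The spread of L1 among the sus1 clones was close to that among clones in general. The SD of L1 over the 11 clones was 0.22, against 0.229 over all tested clones, and ranked 29th from the highest among the 70 genes with at least 3 tested clones, whose median was 0.209. For L2 the SD was 0.08, against 0.112 over all clones, and ranked 37th. For d it was 0.103, against 0.137, and ranked 45th. For a it was larger than over all clones, 0.13 against 0.117, and ranked 19th, where the median of the 70 genes was 0.102. With the reversed B73 arrays turned, the SD was 0.129 for L1, against 0.146 over all clones (42nd), and 0.0786 for a, against 0.0886 (32nd). Of the 70 genes, 40 had clones called for L1 in both directions, as sus1 did, 24 in 1 direction and 6 had none called. With the reversed B73 arrays turned, none of the 70 had a called clone, since 0 clones of the array passed for L1 (20.9% had an unadjusted p under 0.05). These are descriptions, since the clones of a gene are not replicates of a condition.

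**Figure D3:**
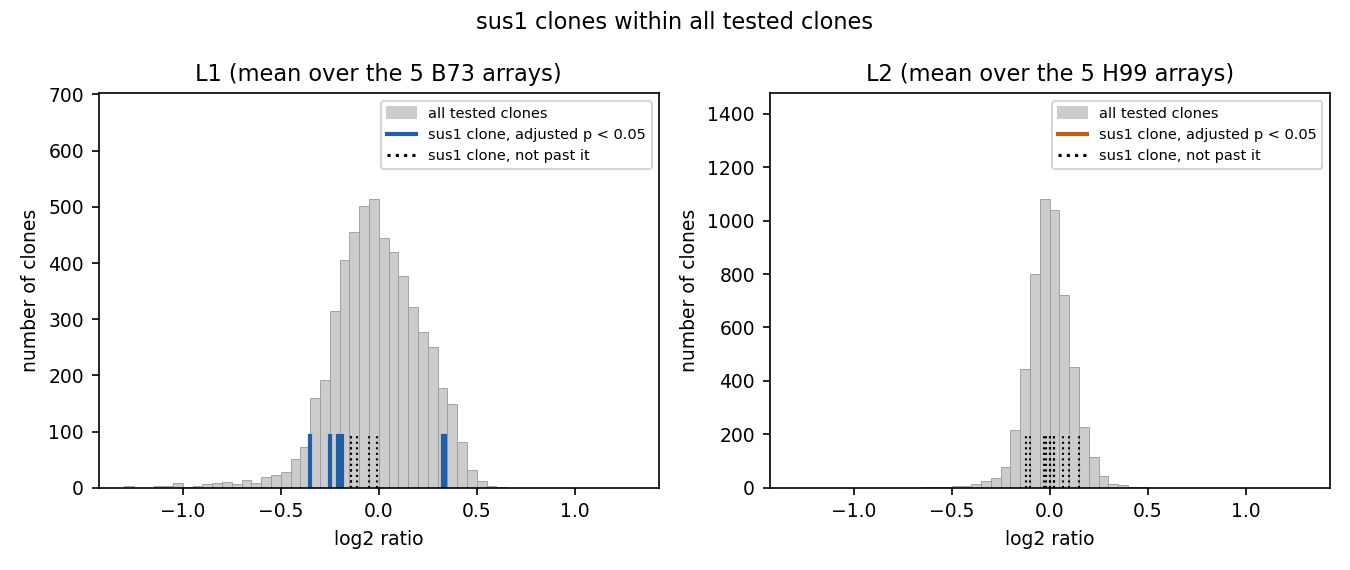
Number of clones (vertical axis) by mean log2 ratio (horizontal axis) for all 5357 tested clones, for L1 on the left and L2 on the right. Vertical lines mark the 11 sus1 clones, solid and coloured where the adjusted p is under 0.05 and dotted otherwise; the sus1 clones spread over most of the body of the L1 distribution, on both sides of 0, and none is called for L2.

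Clones listed next to each other tended to share the sign of L1, over all genes, and the sus1 clones were no test of their own of this. The 11 clones stood at scattered places in the deposited table, from place 59 to place 4929, and for each the median L1 of the 3 clones before and the 3 after it was taken. Of these 66 neighbours, 52 had no gene name, 14 were named for another gene and 0 for sus1. The median was 0.21 around AI734758 (place 326) and 0.19 around AI734723 (place 1670), the 2 positive clones. It was -0.19 around AI737425 (place 4413), -0.30 around AI666096 (place 4777), -0.17 around AI714398 (place 4175) and -0.16 around AI691580 (place 4929). All 6 called sus1 clones thus had the sign of their neighbours' median, as did 74.1% of all called clones, and 9 of the 11 did, as did 65.7% of all tested clones. The exceptions were AI691599, at -0.11 with a neighbours' median of 0.02, and AI734679, at -0.05 with 0.19. With the reversed B73 arrays turned, when no clone was called, 9 of the 11 and 67.0% of all tested clones had the sign of their neighbours' median. With the neighbours' median subtracted on each array, 3 sus1 clones were called for L1 in limma. The share of all clones called in that fit was not taken. AI737425 kept its call (-0.178, adjusted p = 0.0113), AI734758 (0.160, adjusted p = 0.0802) and AI734723 (0.111, adjusted p = 0.052) did not. AI714398 came to -0.054 (adjusted p = 0.347) and AI691580 to -0.009 (adjusted p = 0.88), and AI666096 changed sign to 0.099 (adjusted p = 0.143). The other 2 calls were AI734679 (-0.226, adjusted p = 0.00521) and AI881803 (-0.128, adjusted p = 0.0477), neither called before. The part of the place in the table in these values was not tested further.

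**Figure D4:**
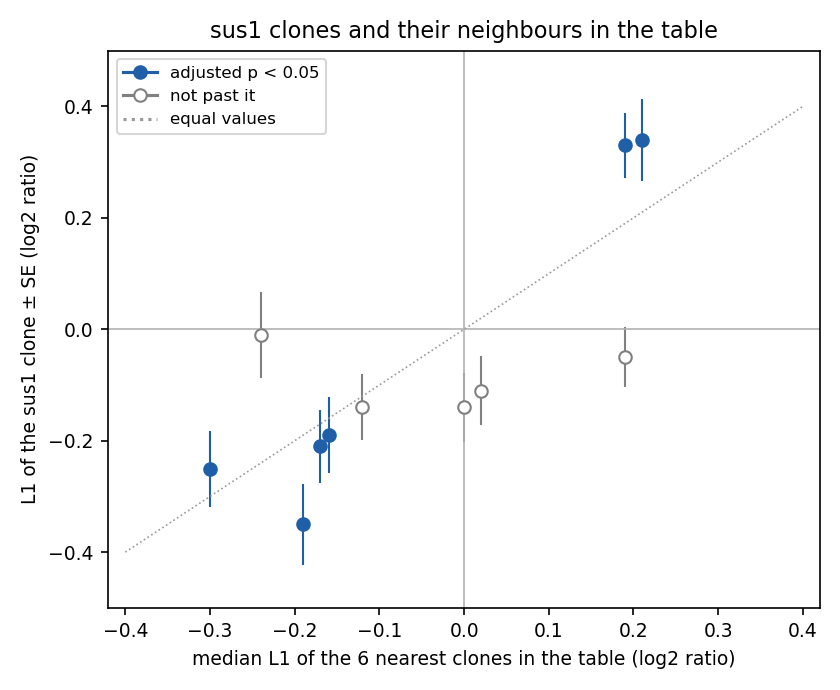
L1 of each sus1 clone ± SE (vertical axis) against the median L1 of the 3 clones before and the 3 after it in the table (horizontal axis), both log2 ratios. Filled points are clones with an adjusted p under 0.05 and the dotted line marks equal values; the 6 filled points lie where both values have the same sign.

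The gene means of the other sucrose and starch genes did not pass either. Of the list of sucrose and starch genes, 4 besides sus1 were on the array, with 10 clones. The gene means of sh1, sbe1 (a starch branching enzyme), AGP2 (a subunit of ADP-glucose pyrophosphorylase, which makes the glucose donor of starch) and frk2 (a fructokinase, which phosphorylates the fructose that sucrose synthase releases) passed for none of L1, L2, d and a in limma, and none had an unadjusted p under 0.05 for any of them. Of their 10 clones, 3 were called positive and 3 negative for L1, where 21.0% and 20.7% of all clones were, and 2 positive and 2 negative for d, where 12.5% and 12.7% were. None was called for L2, against 1.23% of all clones, or for a, against 20.3%, in limma, where AI834731 of sh1 for L2 (unadjusted p = 0.0164) and AI881652 of sh1 and AI738181 of sbe1 for a (unadjusted p = 0.0406 and 0.014) were the clones with an unadjusted p under 0.05.

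The only other sucrose synthase of the list matched on the array was sh1 (LOC542365), with 5 clones. Its gene mean L1 was 0.02 ± 0.0664 (SD, n = 5; limma adjusted p = 0.783), with 0.04, -0.08, 0.10, 0.03 and 0.01 on the B73 arrays. On the H99 arrays it read -0.08, 0.03, -0.03, 0.00 and -0.02, with an L2 of -0.02 ± 0.0427 (SD, n = 5; limma adjusted p = 0.916). Its clones also split, with L1 of 0.30 (AI881652, adjusted p = 0.00489) and 0.19 (AI714408, adjusted p = 0.0289) against -0.18 (AI692089, adjusted p = 0.0371) and -0.17 (AI834731, adjusted p = 0.0275), in limma with n = 5 arrays. The fifth clone, AI834428, lay at -0.03. The 3 clones of sbe1 ran from -0.33 to 0.27. The single clones of AGP2 and frk2 lay at 0.05 ± 0.116 and 0.11 ± 0.134 for L1 (SD, n = 5; limma adjusted p = 0.546 and 0.141). Cross-hybridisation between sus1 and sh1 transcripts was not analysed here.

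Among the 69 other genes with at least 3 tested clones, the gene mean that ran most like that of sus1 over the 10 arrays as deposited was that of the aquaporin PIP2-1 (LOC541888, 6 clones), a water channel of the plasma membrane, with a Pearson correlation of 0.91. It was followed by LOC542693 (3 clones, 0.87), LOC542269 (4 clones, 0.81) and the heat shock gene hsp70-4 (20 clones, 0.80). The 10 points come from 2 sets of arrays with the same hybrid RNA, and the genes share the scatter of each array, so that these are descriptions. The gene means differed in size, with L1 of -0.29 for PIP2-1, -0.10 for LOC542693, -0.15 for LOC542269 and -0.08 for hsp70-4, against -0.07 for sus1. For sh1 the correlation with sus1 was -0.32. With the reversed arrays of B73, of H99 or of both turned, the correlation of PIP2-1 was 0.89, 0.77 and 0.88, and it ranked 1st, 4th and 1st. That of LOC542693 was 0.83, 0.87 and 0.81, and it ranked 1st with the H99 arrays turned. LOC542269 and hsp70-4 stood at 0.66 and 0.70 in that setting, 11th and 7th, so that the order depends on the direction of the reversed H99 arrays.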

How the data were processed

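Per the labels, poly(A) RNA came from pooled total RNA of several extractions per genotype, and each labelling was a separate reverse transcription. The values deposited by the authors were log2 ratios of both channels, 1 per spot. Array medians lay near 0, as centred values would; scanner, correction, normalization and filter are not given in the sources. Intensities were not analysed here.

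Each 3 successive rows were averaged as 1 clone. Of 5400 clones, 811 had 1 gene name, 4589 none and 0 several. The annotation is old; 208 of its 213 gene names matched RefSeq genes (Zm-B73-REFERENCE-NAM-5.0), taken for names only. Clone sequences and genome positions were not analysed here. A clone was tested with at least 3 values per inbred and 1 per orientation, which left 5357 and took out 43.

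limma 3.58.1 (R 4.3.3; tables in Python 3.11.15 with pandas 2.3.3) fitted 1 mean for each inbred to the 10 arrays, without a dye term, on all clones and, separately, on gene means with unnamed clones. The tests are two-sided, with Benjamini-Hochberg adjustment at 0.05. The design text used SAM and F-tests. Dye orientations were compared in a fit with a mean per inbred and orientation. SD is between arrays and SE is limma's. The scripts were tested on simulated data. The alternatives were the direction and use of the reversed arrays, a dye term, scaling, quantile normalization, neighbour subtraction, own variance, array weights, spot and missing-value rules, a replicate block, a median over clones, single spots and each array left out. Spreads over clones, neighbour signs and gene correlations with the reversed arrays turned were added after the data were seen.

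Members, lists and tests were chosen with earlier results of these data known. Named genes were all those of the sucrose and starch list found on the array and the 4 genes whose means correlated best with that of sus1.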

Additional observations from a re-analysis of the deposited data

Results flagged for a closer look

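In 3 of the 24 groups of 5 arrays looked at (11 clones and the gene mean, in each inbred), 1 array stood far from the other 4 by Dixon's criterion, where chance gives about 1 in 20. AI738140 read -0.47 on H99 array 3 against 0.00 to 0.14 on the others, AI691599 read -0.23 on H99 array 5 against 0.02 to 0.11, and AI734679 read 0.04 on B73 array 1 against -0.08 to -0.05. None of these 3 clones was called in any contrast.

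The ratios against B73 and against H99 as deposited differed, by limma's test of a with n = 5 arrays per inbred, for 5 clones. Of all clones 20.3% were called for a. The values of a were -0.22 for AI734758 (adjusted p = 0.0099), -0.15 for AI734723 (adjusted p = 0.0175), 0.16 for AI737425 (adjusted p = 0.0329), 0.17 for AI666096 (adjusted p = 0.0196) and 0.17 for AI691580 (adjusted p = 0.0205). They ran in both directions within the gene. With the reversed B73 arrays turned, none of the 5 was called (limma adjusted p = 0.385 to 0.724). None kept its call with the neighbours' median subtracted (limma adjusted p = 0.0616 to 0.457). AI734679, not called before, was called for a in that fit (0.117, limma adjusted p = 0.041). The share of all clones called for a was taken in neither fit.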

How the results depend on the processing

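As deposited, 6, 0, 3 and 5 sus1 clones were called for L1, L2, d and a. With the reversed B73 arrays turned, or those of both inbreds, the counts for L1, d and a were 0, 0 and 0. With the reversed H99 arrays turned, the counts for L1, L2, d and a were 5, 0, 2 and 5. They were 7, 0, 4 and 6 with a dye term, and the same with array weights. The dye term added AI666109 for L1 (limma adjusted p = 0.00939) and a (0.0154), and AI734758 for d (0.0092). Forward arrays alone gave 6, 1, 3 and 6 calls, and reversed arrays alone gave 2, 0, 1 and 0. With arrays scaled to equal spread, d had 1 call and a 3. After subtraction of the neighbours' median, L1 had 3 calls, d 5 and a 1, and AI666096 changed sign, to 0.099 for L1 (limma adjusted p = 0.143) and 0.139 for d (limma adjusted p = 0.0171). With own variance, d and a had 1 call each, and the gene mean L1 of -0.069 passed (adjusted p = 0.0218). The exact permutation test gave p = 0.0238 for the gene mean a of 0.040. The causes were not tested. Beyond the fit as deposited, the share of all clones called was taken only for L1 with the reversed arrays turned. Other shifts of the counts cannot be told from shifts across the whole array. Leaving out 1 array gave 3 to 6 calls for L1, 0 for L2, 1 to 4 for d and 1 to 6 for a, with L1 at 3 without B73 array 1 or 3, d at 1 without B73 array 1, B73 array 2 or H99 array 1, and a at 1 without B73 array 1 and 2 without H99 array 3.

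In these fits the gene mean ran from -0.088 to -0.059 for L1, 0.004 to 0.022 for L2, -0.038 to -0.024 for d and 0.035 to 0.049 for a, and none passed. Signs of gene means changed without a call in 6 cases, among them L2 with the reversed H99 arrays turned (-0.018). With the replicate number as a block, the counts were 6, 0, 3 and 5 and the gene mean L1 was -0.069 (limma adjusted p = 0.277), so that no call changed. Same-numbered B73 and H99 arrays deviated together at correlations of -0.294 to 0.309, and 1 of 5 correlated best with its own number, so that the numbers were not read as pairs. The depth in molecules is unknown for ratios.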
